A study of Mus musculus with 8 samples.

Results

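The 10 genes described here encode enzymes that break down the branched-chain amino acids leucine, isoleucine and valine, together with the kinase and the phosphatase that set the activity of the pathway. They were taken as a fixed list: Bcat2, Bckdha, Bckdhb, Dbt, Bckdk, Ppm1k, Ivd, Mccc1, Hibch and Hibadh. All 10 had counts in each of the 8 libraries and all 10 were among the 13174 genes tested, of 23282 rows in the deposited tables. The rule names the genes and sets no threshold on a measured value, but the list was drawn up with earlier results of these data known.

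Messenger RNA of the gastrocnemius (a muscle of the calf) was measured in C57BL/6 mice, listed as 4 weeks old, with reads taken from the 3' ends of transcripts. The RP group (2 libraries) came from mice injected under the skin with Lewis lung carcinoma cells, a tumour line of mouse lung, in 100 µl of saline. These mice were then dosed orally for 2 weeks, every day, with Paeonia lactiflora (peony) extracted in 30% ethanol, at 100 mg/kg in 200 µl of water. The group titled Control (3 libraries) bore the same tumour and received water alone, and the group titled Normal (3 libraries) had been injected with saline without cells and also received water. Dosing began 2 weeks after injection, when tumour-bearing mice were distributed so that tumour size matched between groups. The tumour grew under the skin and not in the lung, and the labels do not say whether a library is 1 animal or a pool, so each p-value reflects spread among libraries, which may be technical.

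The titles and the tables conflict for 6 of the 8 libraries. Libraries were grouped by title, whereas the tables of all 6 Normal and Control libraries are headed with the opposite group. Directions are therefore stated for libraries titled Control or titled Normal. If the headings and not the titles are right, Control against Normal turns round, and RP against Control and RP against Normal trade places, so all 3 comparisons are given.

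The branched-chain amino acids are unusual in that muscle, not liver, carries out their first step. In the mitochondria of muscle fibres the aminotransferase BCAT2 moves the amino group to alpha-ketoglutarate, and the resulting ketoacids are oxidised by the branched-chain ketoacid dehydrogenase complex, whose step cannot be reversed. The kinase BCKDK phosphorylates and switches off the complex, and the phosphatase PPM1K switches it on again. The leucine, valine and isoleucine skeletons then follow separate branches to acetyl-CoA, ketone bodies and succinyl-CoA.

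Each library held between 9528011 and 12333767 counts, and the 10 genes together held 3764 to 4740 of them. Levels are CPM, counts scaled to a common library size, corrected with TMM factors, which adjust for differences in composition. Because a read is taken from the 3' end of a transcript, CPM was not divided by length. Fibre markers such as Acta1 and Ckm summed to 98534 and 102779 CPM in RP, 81539 to 95459 CPM in Control-titled and 63686 to 84976 CPM in Normal-titled libraries. This sum is weighted to the most abundant markers. In Control against Normal 4 of the 10 fibre markers had a positive and 6 a negative log2 change. There 2 fibre markers passed higher and 0 lower (4.99% and 5.45% of all genes did). In RP against Normal 8 fibre markers were positive and 2 negative, and 1 passed higher and 0 lower (1.67% and 0.835% of all genes did). Transcripts of blood moved with the groups: haemoglobin genes held 0.862 and 3.83% of counts in the RP libraries, 1.41 to 1.61% in the Control-titled libraries and 4.57 to 19.7% in the Normal-titled libraries. All 7 erythroid markers were lower in Control against Normal and 2 of 7 in RP against Normal, where 5.45% and 0.835% of all genes were. In RNA from whole muscle, fewer cells of a type and less RNA per cell cannot be told apart.

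Between groups, 9 of the 10 genes did not pass the test in any comparison, and the summed level differed little after scaling. The 10 genes summed to 406 and 433 CPM in RP 1 and 2, to 401, 413 and 428 CPM in Control 1, 2 and 3, and to 378, 408 and 401 CPM in Normal 1, 2 and 3. The range of the Control-titled libraries therefore overlapped that of the Normal-titled libraries and that of RP. This rested on the TMM factors: without them the sums were 395 and 417 CPM in RP, 414 to 474 CPM in the Control-titled libraries and 335 to 412 CPM in the Normal-titled libraries. Control-titled and Normal-titled libraries then did not overlap (a difference of means of 57.4 CPM, against 18.3 CPM with TMM), and RP minus Control turned to -33.3 CPM, against 4.91 CPM with TMM. The exception among the 10 was Ivd, the dehydrogenase of the leucine branch, which was 1.59-fold higher in Control-titled and 1.72-fold higher in RP than in Normal-titled libraries. With edgeR (quasi-likelihood test, Benjamini-Hochberg adjusted over all genes), 1 of 10 members, Ivd, passed the threshold of 0.05 in Control against Normal, where 10.4% of all genes tested passed (4.99% higher and 5.45% lower). Ivd was again the 1 of 10 in RP against Normal, where 2.50% passed (1.67% higher and 0.835% lower). In RP against Control 0 of 10 members passed, against 0.175% of all genes (0.144% higher and 0.0304% lower), and 0 of 10 had an unadjusted p under 0.05, where 8.98% of all genes did. DESeq2 also called 0 of 10 in that comparison. A share of 1 in 10 is close to the background in Control against Normal.

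**Figure D1:**
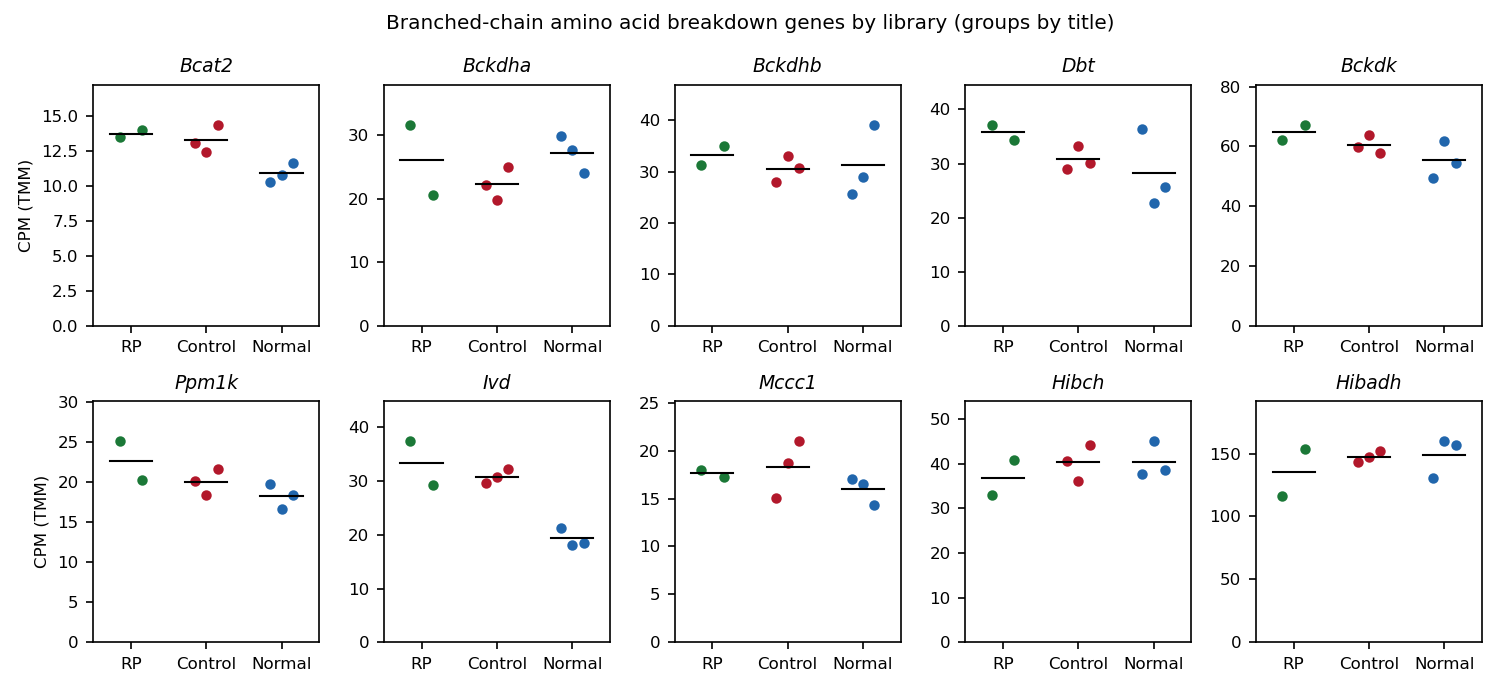
Level of each of the 10 genes in every library, in TMM-scaled CPM on an axis from 0, with a point for each library and a line at the group mean (RP n = 2, Control n = 3, Normal n = 3, groups by title). Ivd stands at 29.3 to 37.4 CPM in the 5 RP and Control-titled libraries and at 18.2 to 21.2 CPM in the Normal-titled libraries. Bckdha, Bckdhb, Hibch and Hibadh overlap between all groups. The groups of Bcat2 do not overlap in Control against Normal or in RP against Normal. Those of Bckdk, Ppm1k and Mccc1 do not overlap in RP against Normal, nor those of Dbt in RP against Control.

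The genes differed far more from each other than between groups. Hibadh, of the valine branch, was the most abundant at 145 ± 14.6 CPM (SD over all 8 libraries) and made up 35.5% of the summed level. Bckdk followed at 59.6 ± 5.62 CPM and stood above Hibch, at 39.5 ± 4.04 CPM, in 8 of 8 libraries. Bckdhb (31.5 ± 4.26 CPM), Dbt (31.1 ± 5.18 CPM), Ivd (27.1 ± 6.997 CPM) and Bckdha (25.1 ± 4.33 CPM) formed a middle group whose neighbours could not be ordered, since each led the next in only 4 or 5 of 8 libraries. Ppm1k (20.05 ± 2.53 CPM), Mccc1 (17.2 ± 2.08 CPM) and Bcat2 (12.5 ± 1.49 CPM) were lowest, and Bcat2 lay below Mccc1 in all 8. Each read stands for 1 transcript end, so this order needs no scaling to transcript length, though how readily each end is captured was not measured.

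Bcat2 encodes the mitochondrial aminotransferase that starts the pathway (chromosome 7, 45568967 to 45589710, build mm10). It had 13.5 and 14.0 CPM in RP 1 and 2, 13.1, 12.4 and 14.4 CPM in Control 1, 2 and 3, and 10.3, 10.8 and 11.6 CPM in Normal 1, 2 and 3. Every Normal-titled library lay below every other library. The difference was small and did not pass the test, with a log2 change of 0.28 (95% interval -0.090 to 0.66, adjusted p = 0.324 in edgeR) in Control against Normal and 0.33 (-0.085 to 0.75, adjusted p = 0.412) in RP against Normal. RP and Control-titled libraries overlapped, with a log2 change of 0.048 (-0.37 to 0.46). Bcat2 was also the most thinly counted member, with 113 to 159 counts per library, so counting alone gives a coefficient of variation of 8.77%. Its exons overlap those of the antisense gene 0610005C13Rik, and the strand counted is not given in the sources used here.

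The dehydrogenase complex is built from an E1 decarboxylase of alpha (Bckdha) and beta (Bckdhb) chains, the E2 acyltransferase core (Dbt) and an E3 subunit (Dld) that it shares with other ketoacid dehydrogenases. Bckdha (chromosome 7, 25629852 to 25658782) had 31.7 and 20.6 CPM in RP 1 and 2, 22.1, 19.9 and 24.9 CPM in Control 1, 2 and 3, and 30.0, 27.7 and 24.1 CPM in Normal 1, 2 and 3. The RP libraries spanned nearly the whole range of the series, and Control 3 lay above Normal 3. The log2 change was -0.29 (95% interval -0.68 to 0.11, adjusted p = 0.354 in edgeR) in Control against Normal. The last 300 bases of a Bckdha transcript also lie in a transcript of the neighbouring gene B3gnt8 on the opposite strand, so the counts of this gene cannot be fully separated from those of B3gnt8.

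Bckdhb (chromosome 9, 83925111 to 84124240) had 31.4 and 35.0 CPM in RP, 27.95, 33.1 and 30.6 CPM in Control 1, 2 and 3, and 25.6, 28.9 and 39.1 CPM in Normal 1, 2 and 3. Normal-titled libraries held both its lowest and its highest level. Dbt (chromosome 3, 116513070 to 116549981) had 37.2 and 34.4 CPM in RP, 28.9, 33.3 and 30.2 CPM in Control 1, 2 and 3, and 36.4, 22.7 and 25.6 CPM in Normal 1, 2 and 3. It was the 1 member whose RP and Control-titled libraries did not overlap, where 31.7% of all genes tested did not (15.3% higher and 16.4% lower), and its log2 change of 0.22 did not pass (95% interval -0.21 to 0.65, adjusted p = 0.810 in edgeR). Normal 1 lay above both other Normal-titled libraries for Dbt and below both for Bckdhb. Dld, from the longer pathway list, had 178 and 175 CPM in RP, 156, 159 and 167 CPM in Control 1, 2 and 3, and 158, 133 and 160 CPM in Normal 1, 2 and 3, and did not pass in any comparison.

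Bckdk and Ppm1k encode the opposing regulators of the complex. Bckdk (chromosome 7, 127904073 to 127909664) had 62.1 and 67.2 CPM in RP, 59.8, 63.8 and 57.7 CPM in Control 1, 2 and 3, and 49.4, 61.9 and 54.6 CPM in Normal 1, 2 and 3. RP lay above the Normal-titled libraries by a narrow margin, with a log2 change of 0.23 (95% interval -0.10 to 0.56, adjusted p = 0.493 in edgeR). Ppm1k (chromosome 6, 57506502 to 57535552) had 25.1 and 20.3 CPM in RP, 20.1, 18.4 and 21.6 CPM in Control 1, 2 and 3, and 19.8, 16.7 and 18.4 CPM in Normal 1, 2 and 3. Its log2 change in RP against Normal was 0.31 (-0.083 to 0.70, adjusted p = 0.417), and in RP against Control 0.18 (-0.21 to 0.57, adjusted p = 0.832).

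The balance of kinase to phosphatase can be read as a ratio within each library, which needs no scaling between libraries. The log2 ratio of Bckdk to Ppm1k, with a pseudocount of 0.5 CPM, averaged 1.498 ± 0.295 (SD, n = 2) in RP, 1.57 ± 0.186 (SD, n = 3) in Control-titled and 1.57 ± 0.284 (SD, n = 3) in Normal-titled libraries. The 3 groups overlapped fully, from 1.29 to 1.86 over the 8 libraries. The difference of means was 0.0036 in Control against Normal (exact permutation test, 2-sided p = 0.9), -0.073 in RP against Control (exact p = 0.7) and -0.069 in RP against Normal (exact p = 0.8), where the smallest p these group sizes allow is 0.1. The log2 ratio of the alpha to the beta gene of E1, described after its values were seen and without a test, averaged -0.37 ± 0.542 in RP, -0.45 ± 0.237 in Control-titled and -0.18 ± 0.466 in Normal-titled libraries. Its spread within RP and within Normal was larger than the difference between any pair of group means.

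**Figure D2:**
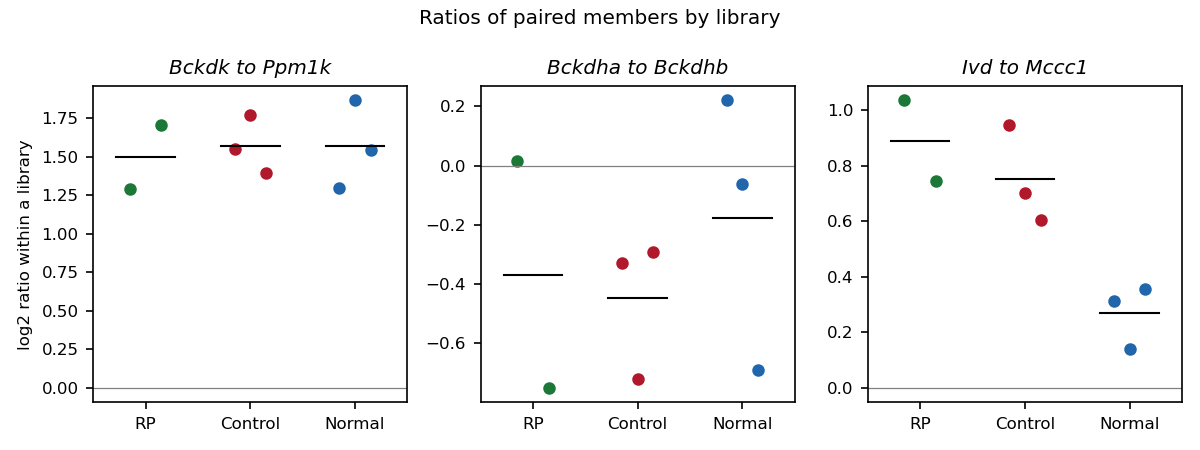
Log2 ratios of 2 genes within each library, for kinase to phosphatase (left), E1 alpha to E1 beta (middle) and Ivd to Mccc1 (right), with a point for each library and a line at each group mean (RP n = 2, Control n = 3, Normal n = 3). Kinase to phosphatase runs from 1.29 to 1.86 with all groups overlapping, whereas Ivd to Mccc1 is 0.61 to 1.03 in RP and Control-titled libraries and 0.14 to 0.36 in Normal-titled libraries.

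Ivd encodes isovaleryl-CoA dehydrogenase, which removes electrons from the leucine-derived acyl-CoA and passes them to the respiratory chain (chromosome 2, 118861959 to 118882909). It is the member on which the group differences turn, and for that reason its promoter is printed. The 215 bases before its RefSeq start, from RefSeq's table of build GRCm38.p6 (the same assembly as mm10), lie on the plus strand at chr2:118861744-118861958. Capitals mark matches to short promoter motifs, namely ATTGG, which is CCAAT read on the other strand, and CACCC.
Ivd: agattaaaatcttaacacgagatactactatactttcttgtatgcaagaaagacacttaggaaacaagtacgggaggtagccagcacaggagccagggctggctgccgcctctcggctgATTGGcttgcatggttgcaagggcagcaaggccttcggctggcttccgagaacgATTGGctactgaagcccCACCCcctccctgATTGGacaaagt
The stretch holds 3 reverse CCAAT boxes, which begin 96, 42 and 12 bases before the start, and 1 CACCC box. Motifs were searched on both strands for the CCAAT box, the CACCC box, the GC box with letters GGGCGG, the E-box with letters CACGTG and the nuclear receptor half-site with letters AAGGTCA, and the last 3 do not occur in this stretch. A CCAAT is present in 33.8% and a CACCC in 52.0% of 32851 RefSeq promoter windows of 250 bases. The window of Ivd, which runs past its start, holds 4 CCAAT copies, as many as or more than which occur in 0.84% of windows, a count made after the copies were seen. Among the 9 members with a listed promoter, 6 hold a CCAAT and 6 a CACCC in any of their windows. The shares above are per window, so they are not a like measure. These matches describe letters only and were not tested for binding.

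Ivd had 37.4 and 29.3 CPM in RP 1 and 2, 29.5, 30.7 and 32.2 CPM in Control 1, 2 and 3, and 21.2, 18.2 and 18.5 CPM in Normal 1, 2 and 3. The Normal-titled libraries stood clear below all 5 others. In raw reads these are 347 and 285 counts in RP, 335, 307 and 356 counts in the Control-titled libraries, and 236, 190 and 191 counts in the Normal-titled libraries, where counting alone gives a coefficient of variation of 5.97%. The log2 change of Ivd was 0.67 ± 0.155 (SE, 95% interval 0.34 to 1.01, adjusted p = 0.0145 in edgeR) in Control against Normal and 0.79 ± 0.171 (SE, 0.42 to 1.154, adjusted p = 0.0282) in RP against Normal. These comparisons share the Normal-titled libraries and are not independent of each other. RP against Control gave a log2 change of 0.11 (-0.25 to 0.48, adjusted p = 0.889). No annotated gene overlaps Ivd, and none shares the last 300 bases of its transcripts.

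The call of Ivd rested on few libraries. In Control against Normal the adjusted p was 0.0608 without Normal 2, 0.0525 without Control 1 and 0.0706 without Control 3, while the log2 change stayed between 0.63 and 0.74. In RP against Normal it was 0.106 without Normal 2, 0.310 without RP 1, and 0.0615 and 0.0591 without Control 1 or Control 3, with the log2 change between 0.60 and 0.95; with the replicate number as a block it was 0.0599 at a log2 change of 0.78. Blood transcripts were measured beside it: with haemoglobin genes and Rn45s removed the log2 changes were 0.68 (adjusted p = 0.0129) and 0.80 (adjusted p = 0.0235). With log2 Hba-a1 as a covariate in edgeR they were 0.37 (adjusted p = 0.415) and 0.52 (adjusted p = 0.266). Hba-a1 itself stood at 14878 to 81503 CPM in Normal-titled, 5229 to 6716 CPM in Control-titled, and 3741 and 14677 CPM in RP libraries. The covariate thus moved with the groups, and this fit cannot tell blood content from group. Neutrophil markers summed to 34.4 and 486 CPM in RP, 10.6 to 20.2 CPM in Control-titled and 926 to 1921 CPM in Normal-titled libraries. In Control against Normal 6 of 6 tested were lower, where 5.45% of all genes were. In RP against Normal 1 of 6 was lower (0.835% of all genes), and in RP against Control 2 of 6 were higher (0.144%). Ngp, Camp and Ltf held at most 0.265 CPM in Control-titled libraries and entered the tests chiefly through the Normal-titled ones. Their lower calls were thus favoured in advance and are not read as support. Fibroblast and tendon markers summed to 6790 and 7007 CPM in RP, 7445 to 8286 CPM in Control-titled and 5163 to 7750 CPM in Normal-titled libraries. Of these markers 4 of 7 were higher in Control against Normal and 3 of 7 in RP against Normal, where 4.99% and 1.67% of all genes were. The part of these cell types in the change of Ivd was not tested.

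Mccc1, the alpha subunit of the carboxylase that acts on the product of isovaleryl-CoA dehydrogenase, did not pass in any comparison. It had 18.0 and 17.3 CPM in RP, 15.1, 18.7 and 20.97 CPM in Control 1, 2 and 3, and 17.0, 16.5 and 14.4 CPM in Normal 1, 2 and 3 (chromosome 3, 35956292 to 36000694). Control-titled and Normal-titled libraries overlapped, at a log2 change of 0.19 (95% interval -0.18 to 0.57, adjusted p = 0.526 in edgeR). The log2 ratio of Ivd to Mccc1, taken after the values were seen and therefore given without a test, was 1.03 and 0.75 in RP, 0.95, 0.70 and 0.61 in the Control-titled libraries, and 0.31, 0.14 and 0.36 in the Normal-titled libraries. Reads of Mccc1 may include the antisense genes Mccc1os and Gm15952, whose exons overlap it.

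The 2 members of the valine branch overlapped between all groups. Hibch, which releases free 3-hydroxyisobutyrate from its CoA ester (chromosome 1, 52845038 to 52920986), had 32.9 and 40.8 CPM in RP, 40.7, 36.1 and 44.1 CPM in Control 1, 2 and 3, and 37.7, 45.0 and 38.5 CPM in Normal 1, 2 and 3. Hibadh, which oxidises that product (chromosome 6, 52546230 to 52640300), had 116 and 154 CPM in RP, 144, 147 and 152 CPM in Control 1, 2 and 3, and 131, 160 and 157 CPM in Normal 1, 2 and 3. RP 1 was the lowest library for both genes. In Control against Normal the log2 change was -0.0037 for Hibch (95% interval -0.33 to 0.32) and -0.015 for Hibadh (-0.34 to 0.31), with adjusted p = 0.992 and 0.965 in edgeR. As fold changes these intervals run from 0.796 to 1.25 for Hibch and from 0.791 to 1.24 for Hibadh. In RP against Control they were -0.13 (-0.50 to 0.24) for Hibch and -0.13 (-0.49 to 0.24) for Hibadh on the log2 scale. Of the other valine enzymes, named after their values were seen, Acad8 (isobutyryl-CoA dehydrogenase) had 27.6 and 30.2 CPM in RP, 24.4 to 26.8 CPM in Control-titled and 17.9 to 23.2 CPM in Normal-titled libraries, so that its 3 groups did not overlap. Its log2 change in RP against Normal was 0.48 (95% interval 0.11 to 0.85, adjusted p = 0.164 in edgeR). Aldh6a1, which oxidises methylmalonate semialdehyde, had 60.9 and 68.8 CPM in RP, 66.4 to 84.4 CPM in Control-titled and 72.9 to 86.0 CPM in Normal-titled libraries, with a log2 change of -0.26 in RP against Normal (adjusted p = 0.464 in edgeR).

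**Figure D3:**
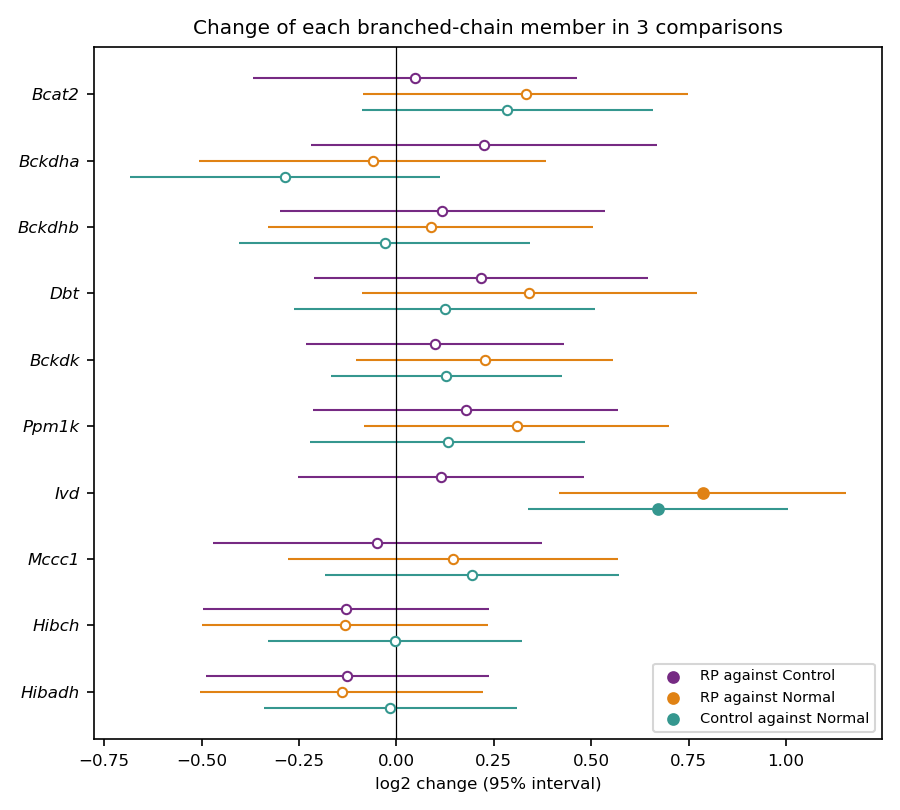
Log2 change of each of the 10 genes with its 95% interval in RP against Control, RP against Normal and Control against Normal, in edgeR's fit of all 8 libraries, with filled points where the adjusted p is under 0.05 and open points elsewhere. The filled points are those of Ivd at 0.67 and 0.79, and the intervals of the other 9 genes all cross 0.

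In the main fit of all 8 libraries, the intervals bound how far the other 9 genes could have moved. In Control against Normal their log2 changes ran from -0.29 to 0.28, and no interval reached beyond -0.68 or 0.66, which is 0.623-fold to 1.58-fold. In RP against Control the log2 changes ran from -0.13 to 0.22 and the intervals stayed within -0.50 and 0.67 (0.709-fold to 1.59-fold). In RP against Normal they ran from -0.14 to 0.34, within -0.51 and 0.77 (0.704-fold to 1.71-fold). A change of 2-fold thus lay outside the interval of each of the 9 in each comparison of that fit. The bounds hold for that fit only. With log2 Hba-a1 as a covariate, Bckdha had a log2 change of -0.82 in Control against Normal (adjusted p = 0.0983 in edgeR), beyond -0.68. Between libraries the members varied little: the median SD of log2 CPM over the 8 libraries was 0.17 for the 10 genes and 0.24 for the 6153 tested genes whose mean lay between 12.5 and 145 CPM, as theirs do. Ivd had the largest SD of the 10, at 0.39.

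Groups that did not overlap were counted as a description. In Control against Normal 2 of 10 members (Bcat2 and Ivd) had all Control-titled libraries above all Normal-titled ones and 0 of 10 below, where 31.3% of all genes tested did not overlap (16.6% higher and 14.7% lower). In RP against Normal 5 of 10 (Bcat2, Bckdk, Ppm1k, Ivd and Mccc1) had both RP libraries above all Normal-titled ones and 0 of 10 below, where 30.8% did not overlap (15.4% in each direction). The median log2 change of the 10 was 0.13, 0.11 and 0.19 in Control against Normal, RP against Control and RP against Normal, against 0.00043, -0.0038 and -0.037 for all genes tested. Of the 5 in RP against Normal, only Ivd passed the test.

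The rest of the pathway was described from 22 further enzymes, a list that, like the 10 genes, was drawn up with earlier results of these data known. In Control against Normal 2 of 22 were higher and 0 lower, where 4.99% and 5.45% of all genes were. In RP against Control 0 were higher and 0 lower (0.144% and 0.0304% of all genes), and in RP against Normal 1 and 0 (1.67% and 0.835%). The median log2 changes of the 22 were 0.049, 0.12 and 0.075, against 0.00043, -0.0038 and -0.037 for all genes tested. Hadha, Hadhb and Acaa2 are on the list of 22 but chiefly serve fatty acid oxidation, and none of them passed in edgeR. DESeq2 called Hadha and the shared hydratase Echs1 lower in Control against Normal. DESeq2 called 0 of 22 in RP against Control, and 1 of 22 had an unadjusted p under 0.05 there in edgeR, against 8.98% of all genes. Oxct1, which activates ketone bodies such as those formed from leucine so that muscle can burn them, was at 599 and 469 CPM in RP, 445, 509 and 508 CPM in Control 1, 2 and 3, and 312, 274 and 277 CPM in Normal 1, 2 and 3. The Normal-titled libraries again lay below all others, and the log2 change was 0.76 (95% interval 0.44 to 1.08, adjusted p = 0.00568 in edgeR) in Control against Normal and 0.89 (0.54 to 1.24, adjusted p = 0.0113) in RP against Normal. In edgeR the second call was lost without Normal 2 (adjusted p = 0.0588), without RP 1 (0.217) and with only the 2 groups (0.0698), and both were lost with the Hba-a1 covariate (0.222 and 0.136). Exons of the gene BC037032 overlap Oxct1.

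Mmab, which makes the cobalamin cofactor used by methylmalonyl-CoA mutase, had 21.985 and 23.4 CPM in RP, 19.2, 19.6 and 25.1 CPM in Control 1, 2 and 3, and 9.63, 11.1 and 16.1 CPM in Normal 1, 2 and 3. Normal 3 came closest to the other groups. The log2 change in Control against Normal was 0.80 (0.35 to 1.24, adjusted p = 0.0270 in edgeR), a call lost with the Hba-a1 covariate and without any 1 of Normal 1, Normal 2 and the 3 Control-titled libraries (highest adjusted p = 0.133). In RP against Normal it was 0.89 with adjusted p = 0.0618. The mutase gene itself, Mut, had log2 changes of -0.082 and 0.066 in these comparisons and did not pass.

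**Figure D4:**
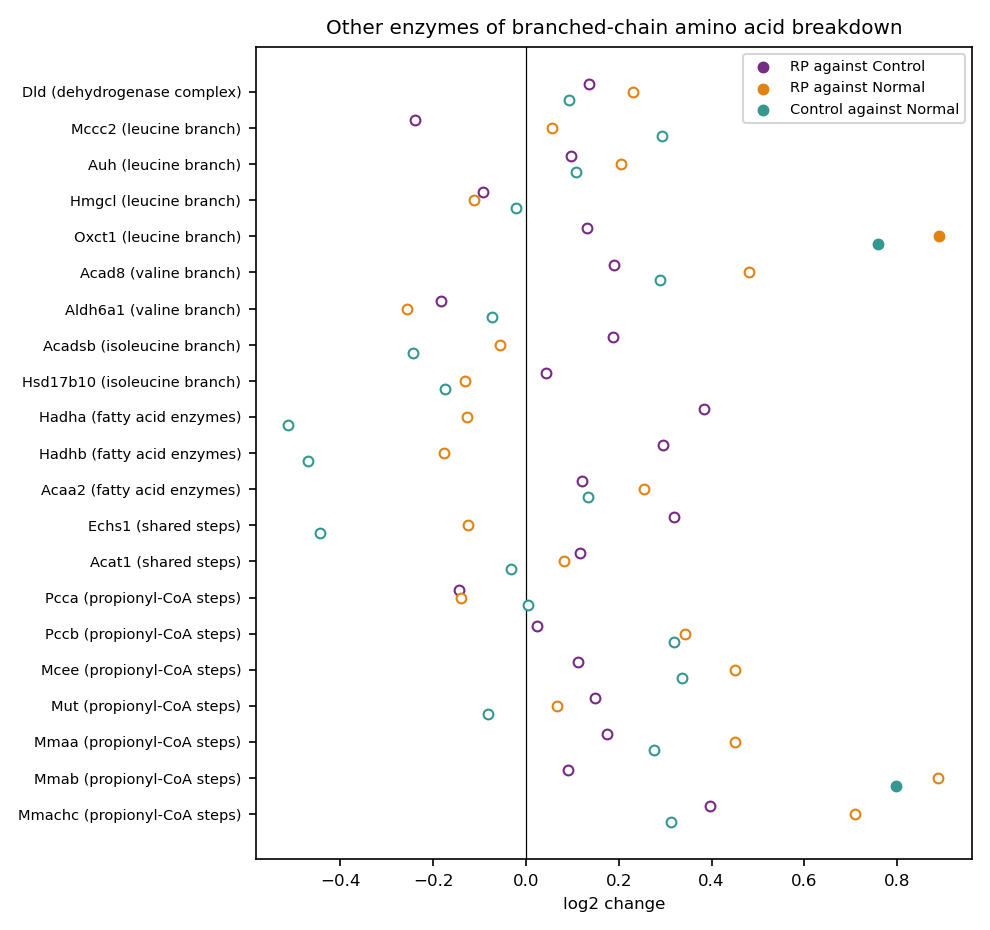
Log2 change of 21 further enzymes of the pathway in RP against Control, RP against Normal and Control against Normal, grouped by branch, with filled points where edgeR's adjusted p is under 0.05. Oxct1 and Mmab carry the filled points, at 0.76, 0.89 and 0.80, and Bcat1, whose highest level in any library was 1.98 CPM, is left out.

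Uptake of these amino acids into the cell runs in part through the transporter LAT1, a pair of the light chain Slc7a5 and the heavy chain Slc3a2. Of 7 tested transport genes 0 were higher and 2 lower in Control against Normal, where 4.99% and 5.45% of all genes were. In RP against Normal 0 were higher and 1 lower, where 1.67% and 0.835% of all genes were. Both counts of lower genes include Slc7a5, which entered the tests only through the Normal-titled libraries. In RP against Control 0 passed in edgeR, where 0.175% of all genes did. There 1 had an unadjusted p under 0.05 (8.98% of all genes did), and DESeq2 called 1, Slc3a2, higher. Slc3a2 had 89.4 and 83.7 CPM in RP, 56.6, 58.0 and 56.1 CPM in Control 1, 2 and 3, and 110, 94.8 and 95.3 CPM in Normal 1, 2 and 3. It was lower in the Control-titled libraries (log2 change -0.81, 95% interval -1.10 to -0.53, adjusted p = 0.00189 in edgeR), a call that held in 17 of 17 alternatives. RP lay between the groups, with a log2 change of 0.60 against Control (0.29 to 0.92, adjusted p = 0.164).

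Slc7a5 was barely detected: it had 2 and 1 counts in RP, 1, 3 and 2 counts in the Control-titled libraries, and 15, 23 and 21 counts in the Normal-titled libraries. That is 3 counts in RP and 6 in Control-titled against 59 in Normal-titled libraries. Scaled for library size, the RP to Normal ratio was 0.0853 (exact 95% counting interval 0.0171 to 0.262), and the interval for Control to Normal was 0.0353 to 0.231. Only the Normal-titled libraries held enough counts for Slc7a5 to enter the tests. A lower call was thus favoured in advance and is not read as support. Slc7a5 passed the test lower in both comparisons (adjusted p = 0.0434 and 0.00770 in edgeR). In RP against Normal the call held in only 5 of the 15 alternatives that gave it a value. In Control against Normal it was lost with the Hba-a1 covariate (adjusted p = 0.180). Slc7a8, also on the transport list, had 18.21 and 15.32 CPM in RP, 9.60 to 15.28 CPM in Control-titled and 10.6 to 11.9 CPM in Normal-titled libraries. It did not pass in any comparison, with a log2 change of 0.58 in RP against Normal (adjusted p = 0.205 in edgeR). The mitochondrial carrier of branched-chain amino acids, Slc25a44, had 38.6 and 35.7 CPM in RP, 30.5, 33.6 and 29.2 CPM in Control 1, 2 and 3, and 33.8, 42.4 and 34.4 CPM in Normal 1, 2 and 3, and did not pass in any comparison.

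The nitrogen removed by BCAT2 leaves muscle mostly as alanine and glutamine. Of 7 enzymes of that route, 0 passed in any of the 3 comparisons in edgeR, with 2 at an unadjusted p under 0.05 in Control against Normal, 1 in RP against Control and 2 in RP against Normal. Over all genes tested, 26.3%, 8.98% and 17.1% had such a p in these comparisons. DESeq2 called 1 higher in Control against Normal (Gpt2), 0 in RP against Control and 1 higher in RP against Normal (Got1). The cytosolic aspartate aminotransferase Got1 came nearest, at 404 and 347 CPM in RP, 274, 286 and 313 CPM in Control 1, 2 and 3, and 268, 226 and 233 CPM in Normal 1, 2 and 3. Its groups were ordered without overlap, and its log2 change in RP against Normal was 0.63 with adjusted p = 0.0531 in edgeR.

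Of 9 transcription factors and coactivators linked to this pathway or to mitochondria, 0 were higher and 2 lower in Control against Normal. Over all genes, 4.99% were higher and 5.45% lower there. In RP against Control 1 was higher and 0 lower, where 0.144% and 0.0304% of all genes were. In RP against Normal 0 passed, where 2.50% of all genes did. There 3 had an unadjusted p under 0.05 in edgeR (17.1% of all genes did), and DESeq2 called 0. Klf15, a factor known to raise Bcat2 in mouse muscle, had 32.0 and 38.8 CPM in RP, 23.3, 29.3 and 31.5 CPM in Control 1, 2 and 3, and 36.8, 28.2 and 31.8 CPM in Normal 1, 2 and 3, and did not pass in any comparison. Ppargc1a, the coactivator of mitochondrial genes, had 328 and 229 CPM in RP, 38.5, 40.2 and 50.4 CPM in Control 1, 2 and 3, and 180, 209 and 98.7 CPM in Normal 1, 2 and 3. Its log2 change was 2.69 in RP against Control (adjusted p = 7.74e-04 in edgeR) and -1.92 in Control against Normal (adjusted p = 4.51e-04), and both calls held in 17 of 17 alternatives. Foxo1, which had 68.6 and 53.3 CPM in RP, 30.7 to 46.6 CPM in Control-titled and 54.1 to 81.5 CPM in Normal-titled libraries, was the other factor lower in Control against Normal, with adjusted p = 0.0269 in edgeR that was lost without Normal 3, Control 1 or Control 2 and with the Hba-a1 covariate.

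Genes with a pattern like that of a member were named by Pearson's r of log2 CPM over the 8 libraries, among genes with a mean of at least 20 CPM. Since groups differ, these r largely follow the groups and carry no test. For Bcat2 the closest of 5518 genes were Ttl (r = 0.974), Tmem70 (0.971) and Atp1b2 (0.969). For Bckdk they were Plcl2 (0.965), Tm2d2 (0.946) and Taf13 (0.932). For Ivd, added after its values were seen, they were Oxct1 (r = 0.996), the ATP synthase subunit gene Atp5g3 (0.988) and Dlat (0.985), the E2 core of pyruvate dehydrogenase. RP 1 was the highest and Normal 2 the lowest library for both Oxct1 and Ivd.

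**Figure D5:**
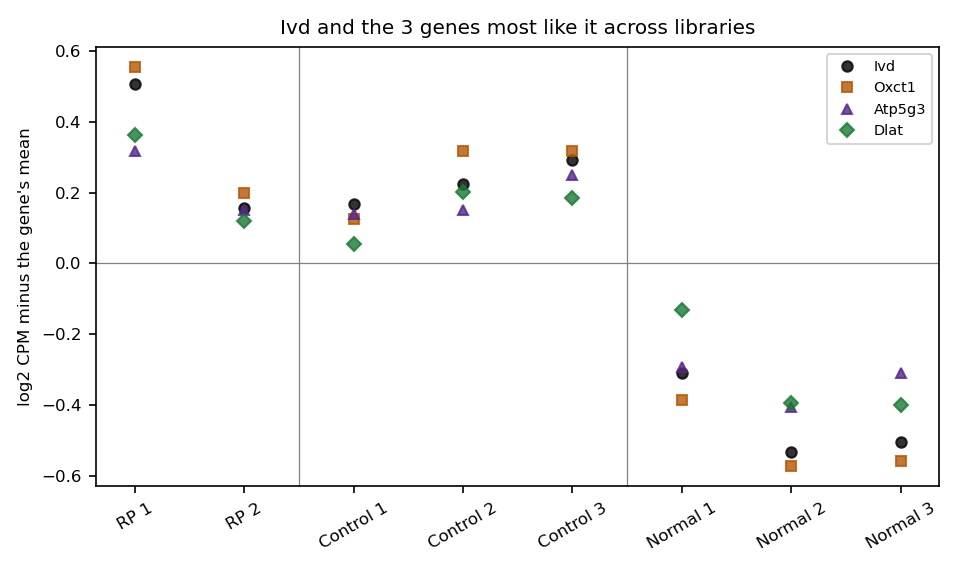
Log2 CPM of Ivd, Oxct1, Atp5g3 and Dlat in each library, minus each gene's mean over the 8 libraries, with a marker for each gene and vertical lines between the RP, Control and Normal groups. All 4 genes lie below their mean in the 3 Normal-titled libraries and above it in the 5 others, with Pearson's r to Ivd of 0.985 to 0.996.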

How the data were processed

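The authors deposited raw read counts per gene symbol, 1 library to a table, without normalization. Per the labels' protocols, libraries were made from total RNA with the Lexogen QuantSeq 3' kit, and Bowtie2, edgeR and build mm10 are listed, without versions, in the submitters' processing notes. The counting tool, strand and annotation are not given in the sources used here. All 23282 rows of each table were read; 35 symbols listed more than once were kept as separate rows, and none is a member.

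Testing used edgeR 4.0.16 under R 4.3.3: filterByExpr left 13174 genes, TMM set the scaling, and 1 quasi-likelihood fit held all 8 libraries. Tests were 2-sided, adjusted by Benjamini-Hochberg over all genes, with a threshold of 0.05. Log2 CPM used a prior count of 2. Intervals are 95% and follow from the test's standard error. Counting intervals do not cover amplification, and the labels mention no molecular identifiers. The pipeline was tested on simulated counts. Positions and promoters came from RefSeq (GRCm38.p6), and overlaps and shared 3' ends from GENCODE M21.

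The members, the lists and the tests were chosen with earlier results of these data known. By rule all 10 members were named, and of the other lists the genes past the threshold. Slc7a8, Slc25a44, Got1, Klf15, Dld, Mut, Acad8, Aldh6a1 and Pdk4 were added after their values were seen. So were the ratios other than Bckdk to Ppm1k and the genes most like Ivd. Alternatives were RLE and upper-quartile scaling, DESeq2 1.42.0, dropping the filter or asking for a mean of 5 CPM, only the 2 groups compared, a replicate block, removal of haemoglobin genes and Rn45s, log2 Hba-a1 as a covariate, and leaving out each library. With an RP library left out, the remaining one takes its spread from the other groups. Because Hba-a1 differs between the groups, a call lost with that covariate does not separate blood content from group. Figures were drawn with matplotlib 3.10.9.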

Additional observations from a re-analysis of the deposited data

How the results depend on the processing

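Of the 9 members other than Ivd, 0 were called in any of 459 single-gene edgeR or DESeq2 tests (lowest adjusted p = 0.0613). These span the 3 comparisons and 17 alternative settings, which reuse the same libraries and are not independent. The count of members called fell to 0, against 1, with the Hba-a1 covariate in Control against Normal and in RP against Normal, and in RP against Normal also with only the 2 groups compared (Ivd adjusted p = 0.119) and with the replicate block. Leaving out a library gave 0 to 1 members in each of these 2 comparisons. For the 22 other enzymes the count in Control against Normal was 4 with DESeq2, 0 with the covariate and 1 to 5 without a library, and in RP against Normal 3 without a filter, 2 with DESeq2, 0 with only the 2 groups, 2 with the replicate block, 0 with the covariate and 0 to 4 without a library.

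Counts over all genes moved more. Control against Normal gave 1376 calls, 396 with the covariate and 608 to 1858 without a library. RP against Control gave 23, but 204 without a filter, 11 at a mean CPM of at least 5, 109 with DESeq2, 121 with only the 2 groups, 53 with the covariate and 8 to 72 without a library. RP against Normal gave 330, but 718 without a filter, 646 with DESeq2, 100 with only the 2 groups, 107 with the covariate and 57 to 670 without a library.

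Changes close to 0 switched sign, all without a call. In Control against Normal, upper-quartile scaling gave 0.013 for Bckdhb, 0.029 for Hibadh and 0.042 for Hibch, and Hibch was 0.011 at a mean CPM of at least 5, 0.00021 with the replicate block and 0.0048 with haemoglobin genes removed. With the covariate Bckdhb was 0.48, Hibadh 0.35, Hibch 0.14, Dbt -0.22 and Ppm1k -0.11, and in RP against Normal Hibadh was 0.16 and Mccc1 -0.0057. Without a library, log2 changes in Control against Normal ran from -0.16 to 0.16 for Bckdhb, -0.013 to 0.35 for Dbt, -0.10 to 0.036 for Hibadh and -0.072 to 0.082 for Hibch. In RP against Control they ran from -0.12 to 0.51 for Bckdha, -0.34 to 0.062 for Hibadh, -0.29 to 0.020 for Hibch, -0.071 to 0.28 for Ivd and -0.17 to 0.063 for Mccc1. In RP against Normal they ran from -0.40 to 0.22 for Bckdha, -0.037 to 0.30 for Bckdhb, -0.35 to 0.047 for Hibadh and -0.30 to 0.016 for Hibch.

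The difference in the log2 ratio of Bckdk to Ppm1k ran from -0.13 to 0.15 in Control against Normal, -0.28 to 0.14 in RP against Control and -0.28 to 0.14 in RP against Normal when a library was left out. The difference in summed CPM was 57.4 in Control against Normal without TMM factors, against 18.3 with them, and -33.3 in RP against Control, against 4.91. The cause of these shifts was not tested. Libraries with the same replicate number did not deviate together (r from -0.068 to 0.080), so the number was not taken as a pairing. Slc7a5 had no value at a mean CPM of at least 5, nor in 1 further alternative of RP against Normal. The main fit had 2 or 3 libraries a group and 113 to 1679 counts per member and library. Its intervals for the 9 other members leave room for changes of up to 1.58-fold to 1.71-fold upward, depending on the comparison.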

Other observations

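A list of 16 genes whose proteins share the mitochondrion with the breakdown pathway was also read. It held enzymes of the citric acid cycle, of pyruvate oxidation and of the respiratory chain, together with Vdac1 and the kinase gene Pdk4. The 16 genes summed to 8997 and 8718 CPM in RP 1 and 2, to 8002 to 8391 CPM in the Control-titled libraries and to 6902 to 6950 CPM in the Normal-titled libraries, so that the 3 groups did not overlap. Of the 16, 12 had all Control-titled libraries above all Normal-titled ones and 12 had both RP libraries above them, where 16.6% and 15.4% of all genes tested did so. In edgeR's quasi-likelihood test 1 of 16 was higher and 0 lower in each of these comparisons. Over all genes 4.99% were higher and 5.45% lower in Control against Normal, and 1.67% and 0.835% in RP against Normal. DESeq2 called 3 and 6 of the 16 higher. It called 742 of 13764 genes higher in Control against Normal, and its count for RP against Normal, both directions together, is given above. The gene called in edgeR was Idh3a, the catalytic subunit of the NAD-linked isocitrate dehydrogenase, at 412 and 449 CPM in RP, 424, 447 and 418 CPM in Control 1, 2 and 3, and 299.98, 238 and 271 CPM in Normal 1, 2 and 3. Its log2 change was 0.67 in both Control against Normal (adjusted p = 0.00867) and RP against Normal (adjusted p = 0.0373), but the first call was lost with the Hba-a1 covariate (adjusted p = 0.118) and the second held in 8 of 17 alternatives.

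Pdk4, also on that list, is the kinase that switches off pyruvate dehydrogenase as BCKDK does the branched-chain complex. It had 36.2 and 121 CPM in RP 1 and 2, 114, 92.2 and 90.9 CPM in Control 1, 2 and 3, and 343, 148 and 111 CPM in Normal 1, 2 and 3. It varied over a far wider range than Bckdk, which ran from 49.4 to 67.2 CPM, and did not pass in edgeR in any comparison.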
